A study of Homo sapiens with 4 samples.

Results

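Laminins are secreted basement membrane proteins, each built from an alpha, a beta and a gamma chain that wind together before export. The alpha chain carries most of the sites that receptors bind, and the chains present in a cell set which trimers it can make. In breast and other epithelia, laminin-332, which holds the α3 and β3 chains, anchors basal cells through hemidesmosomes, whereas trimers with the α5 chain and β1 or β2 are widespread. Transcripts of 9 laminin chain genes, LAMA1 to LAMA5, LAMB1 to LAMB3 and LAMC1, were followed here among 23394 genes in 4 RNA-seq libraries. All 9 had a row in the count table, and 8 had enough counts to be tested. The genes were selected on their symbols with their differences in this same comparison already known, so their values and calls are given as a description, with no p-value and nothing concluded from a call.

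The cells were SUM159, an established triple-negative breast cancer line with mesenchymal features, grown in F12 medium with serum, insulin and hydrocortisone. The control group was 2 libraries of cells treated with DMSO, the solvent. The knockdown group was 2 libraries of cells treated with doxycycline, which induced an siRNA that targets SHARP. That gene is also called SPEN, a nuclear corepressor that works with RBPJ, the DNA-binding partner of Notch. Because only the knockdown cells received doxycycline, the drug and the lower SPEN cannot be told apart, and the labels do not say whether control cells carried the construct or whether replicates were separate cultures. If they were not, the p-values measure technical spread only.

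Library totals lay between 15641296 and 17197715 counts. SPEN counts were 3129 and 3208 in control cells against 1660 and 1666 after knockdown, which left 0.582 times the control CPM (log2 fold change -0.78, SE 0.035). The mesenchymal filament gene vimentin (VIM) averaged 3257 CPM (counts scaled to library size) in control cells and 5020 CPM after knockdown (log2 fold change 0.62). Of the other mesenchymal markers, CD44 and AXL were also called higher and CAV1 lower (log2 fold change 0.15, 0.41 and -0.17), and their part in the laminin results was not tested. The epithelial genes CDH1 and GRHL2 had 0 counts in every library, and EPCAM had 0 to 2. Of the receptor genes ESR1, PGR and ERBB2, the first had 1 to 3 counts per library and PGR 0 to 5. ERBB2 was well above these, at 89.8 CPM on average in control cells and 73.8 CPM after knockdown. It was called lower (log2 fold change -0.28), and its part in the laminin results was not tested. The 6 endothelial markers summed to 1.36 to 2.62 CPM. For the 7 leukocyte markers the sum was 36.4 and 40.4 CPM in control cells against 46.8 and 47.7 CPM after knockdown. Most of this was CD68, with MS4A1 at 0 counts throughout and PTPRC, the pan-leukocyte antigen, at 4 to 9 counts per library. ITGAM, another of them, had 0 counts in both control libraries but 10 and 19 after knockdown, while CD14 had 14 and 11 against 3 and 7 and was not called.

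Sequences before the transcript starts of LAMB3, LAMB1, LAMB2 and LAMA3 are shown first, so that the letters found there can be set beside the values. RefSeq promoter windows (GRCh38.p14) were matched for 8 of the 9 genes, with 3 starts for LAMB3, and the 250 bases before each start were searched on both strands. The motifs were TGANTCA, bound by AP-1 factors, TGGGAA, the core read by RBPJ, GGAATG, the core of TEAD sites, and GGGANTTTC, an NF-kB type site. A palindromic match was counted once, and no matches overlapped. Capitals mark the matches. One LAMB3 stretch lies before the innermost start, which is within the gene, and the other before the outermost start, ended where an annotated exon begins. The LAMB1 stretch, likewise ended at an exon, is shown as that of a chain that rose without any match in its window. No window of LAMA1 was used here.
LAMB3, innermost start, chr1:209651375-209651624, minus strand: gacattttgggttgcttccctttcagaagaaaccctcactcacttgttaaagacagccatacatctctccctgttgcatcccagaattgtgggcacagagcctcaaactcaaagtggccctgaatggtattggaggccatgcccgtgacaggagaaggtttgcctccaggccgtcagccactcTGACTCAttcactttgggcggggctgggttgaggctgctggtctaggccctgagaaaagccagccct
LAMB3, outermost start, chr1:209652467-209652675, minus strand: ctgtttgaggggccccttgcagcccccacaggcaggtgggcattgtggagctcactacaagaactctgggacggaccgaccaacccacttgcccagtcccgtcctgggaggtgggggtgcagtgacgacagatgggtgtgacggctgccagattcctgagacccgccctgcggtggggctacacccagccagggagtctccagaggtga
LAMB1, chr7:108003256-108003411, minus strand: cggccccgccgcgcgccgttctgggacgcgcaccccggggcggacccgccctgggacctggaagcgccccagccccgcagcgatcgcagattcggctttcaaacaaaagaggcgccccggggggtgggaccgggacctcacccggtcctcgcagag

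For LAMA3 and LAMB2, whose windows overlap annotated exons, only the matches with up to 10 bases on either side are shown. The overlap is the last 180 bases of the LAMA3 window and the last 68 of the LAMB2 window. All matches of these genes lie within it, so in annotated exon sequence. They are given because LAMA3 encodes the partner of the β3 chain and LAMB2 had the largest fall of the family.
LAMA3, upstream match, chr18:23872885-23872911, plus strand: tggcacaggcTGACTCAtgtgtgaagt
LAMA3, downstream match, chr18:23872941-23872967, plus strand: cttcctcaccTGAGTCAggcaggcccg
LAMB2, upstream match, chr3:49133084-49133109, minus strand: gttgcgctccTTCCCAgaatccgctc
LAMB2, downstream match, chr3:49133051-49133071, minus strand: cctgccgcgaTTCCCAacttt

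The AP-1 motif occurred before the innermost LAMB3 start, from base -67 to -61, and at both LAMA3 positions, from -125 to -119 and from -69 to -63. Among 35116 windows of all genes, 6.57% held it. LAMB2 held the RBPJ core at -49 to -44 and at -11 to -6, and 20.8% of all windows held at least 1. LAMA2 had a TEAD core at -167 to -162, found in 11.9% of all windows. The NF-kB type motif, held by 1.12% of all windows, was not among these letters. Of the 10 windows of laminin genes, 4 had a match of any kind. The share of all windows with a match of any kind was not computed, so nothing is read from this count. The windows of the outermost and the middle LAMB3 start also overlap each other. A match of letters is not a measured binding site, and no binding was measured in this series.

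**Figure D1:**
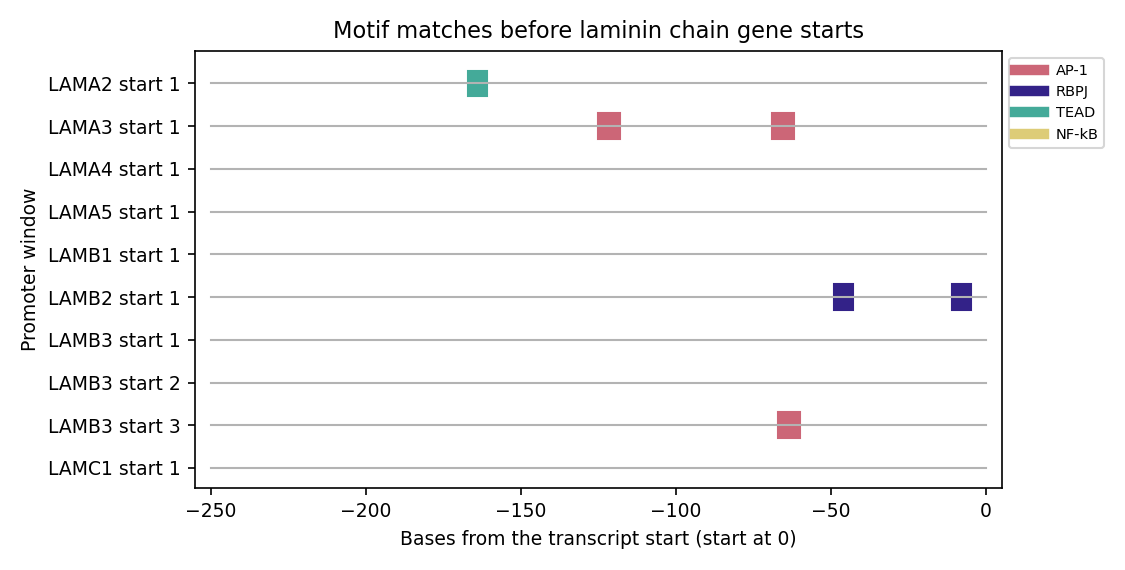
Position of motif matches in the 250 bases before 10 transcript starts of 8 laminin chain genes, in bases from the start on the x axis, with 1 line per window and colours for the motifs. AP-1 matches are seen before the innermost LAMB3 start and the only LAMA3 start searched, and RBPJ matches before LAMB2.

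In the knockdown, RNA of the β3 chain rose about 9-fold, and RNA of the β1, α1 and α3 chains rose less. RNA of the β2 chain fell. That of the α5 chain fell slightly, to 0.908 times the control CPM, and its call was lost under some alternative settings. RNA of γ1, the gamma chain of most trimers, lay at the same level in both groups. Of all tested genes, 50.1% were called by edgeR's quasi-likelihood model at an adjusted p of 0.05, with 25.1% higher and 24.9% lower. By the same call 4 of the 8 tested laminin genes were higher and 2 lower, and since these genes were chosen with this contrast known, nothing is read from the count. Their median log2 fold change was 0.33, against 0.0012 over all tested genes. Changes of at least 2-fold among called genes were seen for 2 laminin genes, both higher, against 2.16% of all genes higher and 1.99% lower. Control and knockdown values were separate for 7 of the 8, against 74.3% of all tested genes. The summed level of the 9 genes was 1150 ± 4.42 CPM in the controls and 1377 ± 4.26 CPM in the knockdown (SD, n = 2 each).

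**Figure D2:**
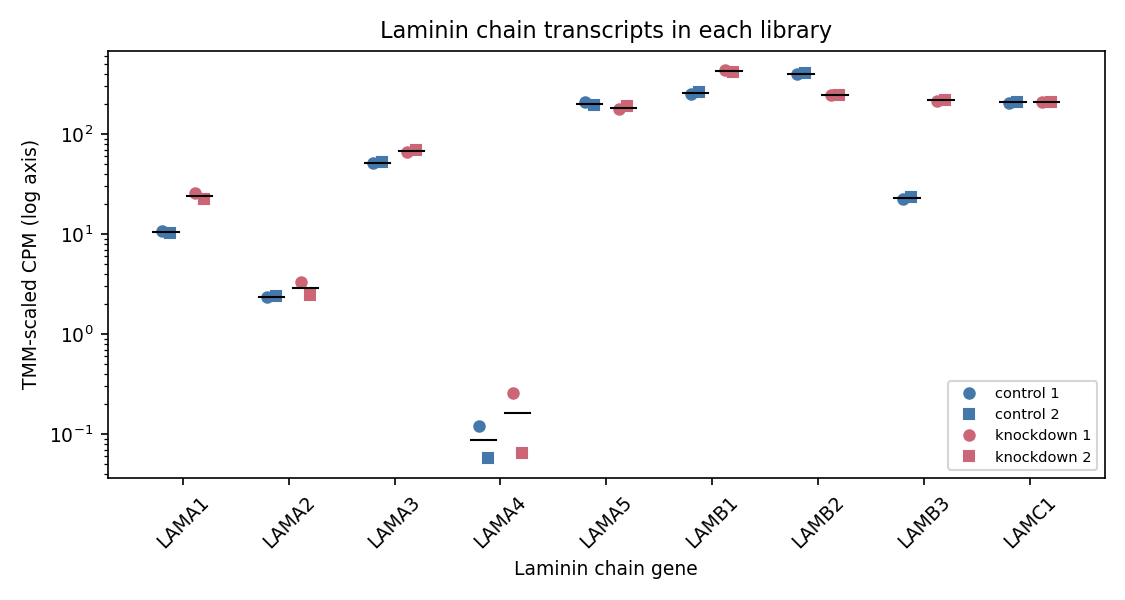
TMM-scaled CPM of the 9 laminin chain genes in each library on a log axis, with controls in blue, knockdown in red, circles and squares for replicates 1 and 2, and a line at each group mean. LAMB3 sits near 23 CPM in both controls and above 215 CPM in both knockdown libraries, while the 4 LAMC1 points lie together.

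Among the beta chains, LAMB3 had the largest log2 fold change of the 8 tested laminin genes. This gene, which encodes the β3 chain found in laminin-332, measured 22.7 and 23.6 CPM in control cells against 216 and 220 CPM after knockdown. Its counts were 380 and 411 against 3331 and 3388, so the groups lay far apart and the replicates close together. The mean rose 9.42-fold, from 23.1 ± 0.644 to 218 ± 2.95 CPM (SD, n = 2 each), a log2 fold change of 3.24 (SE 0.048). That was the 24th largest rise of 13915 tested genes. In bulk RNA, more cells with the transcript and more transcript per cell cannot be told apart. The leukocyte marker sum given above also differed between the groups, and its part in the LAMB3 result was not tested.

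LAMB1, the β1 chain of many widespread trimers, measured 250 and 260 CPM in control cells against 435 and 421 CPM after knockdown. Every knockdown value lay above every control value, and the mean rose 1.68-fold (log2 fold change 0.75, SE 0.027). LAMB2, the β2 chain that replaces β1 in synaptic and kidney basement membranes, went the other way. It measured 395 and 403 CPM in control cells against 243 and 247 CPM after knockdown. The fall left 0.615 times the control level (log2 fold change -0.70, SE 0.025), with no overlap between groups. LAMB2P1, a pseudogene that resembles LAMB2, had only 9 to 24 counts per library, against 3758 to 7032 for LAMB2, and no source used here says how shared reads were divided.

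The alpha chains lay on very different levels. LAMA5, the α5 chain, measured 209 and 193 CPM in control cells against 176 and 189 CPM after knockdown. The groups did not overlap but came close, and the log2 fold change was small (-0.14, SE 0.041). Its call was lost without control replicate 1 (log2 fold change -0.079) and without knockdown replicate 1 (-0.090), and also with no filter on low counts. LAMA3, the α3 chain that joins β3 in laminin-332, measured 51.3 and 52.4 CPM in control cells against 65.9 and 69.4 CPM after knockdown. Both knockdown values were higher, a 1.30-fold rise (log2 fold change 0.38, SE 0.046). The gene makes a long and a short α3 chain from separate starts, and the count per gene does not separate them. A window for only 1 LAMA3 start was searched for motifs.

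LAMA1, the α1 chain known from embryonic basement membranes, had 181 and 179 counts in control cells against 397 and 344 after knockdown. That was 10.8 and 10.3 CPM against 25.7 and 22.3 CPM, a 2.28-fold rise without overlap (log2 fold change 1.19, SE 0.10). LAMA2, the α2 chain of muscle and nerve, stayed low. It had 39 and 42 counts in control cells against 51 and 38 after knockdown (log2 fold change 0.28, SE 0.24), and it was not called. LAMA4, the α4 chain of vessel walls, had 2 and 1 counts in control cells against 4 and 1 after knockdown. At this depth, where 3 counts in a library correspond to 0.172 to 0.195 CPM, no difference in LAMA4 was detectable.

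LAMC1, the γ1 chain shared by most trimers outside the stratified epithelia, measured 206 and 208 CPM in control cells against 208 and 208 CPM after knockdown. The knockdown values lay between the control values, and the log2 fold change was 0.0048 (SE 0.028). Of chains outside the 9, LAMB4 had 0 to 3 counts and LAMC3 0 to 4 counts per library, too few to compare.

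**Figure D3:**
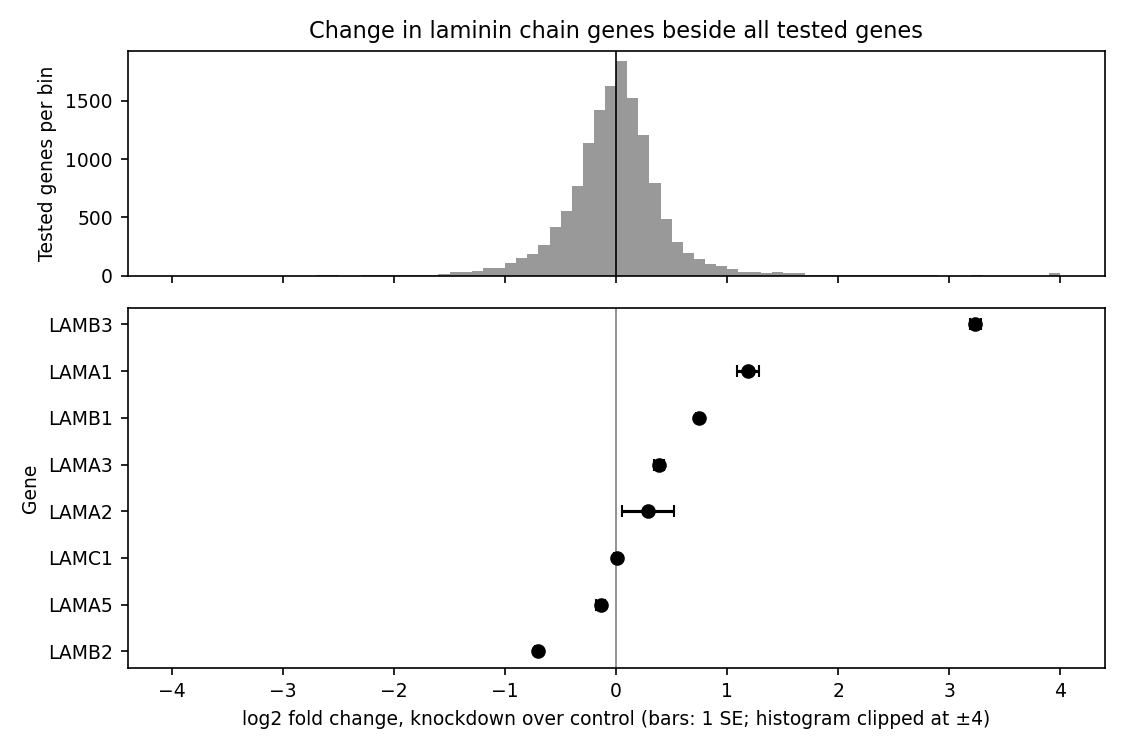
The log2 fold change (knockdown over control) of the 8 tested laminin chain genes with bars of 1 SE, below a histogram of the same quantity over the 13915 tested genes. LAMB3 lies at 3.24, in the thin right tail, LAMB2 at -0.70 and LAMC1 next to 0.

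For the order and the mix of the chains, levels were divided by coding length, as CPM per kb of the longest annotated coding sequence. On this scale the order in the controls was LAMB2 (74.0), LAMB1 (47.0), LAMC1 (42.9), LAMA5 (18.2), LAMB3 (6.57) and LAMA3 (5.19). Below these came LAMA1 (1.14) and LAMA2 (0.253). In the knockdown the order was LAMB1 (78.9), LAMB3 (61.9), LAMB2 (45.5), LAMC1 (43.1), LAMA5 (16.5), LAMA3 (6.77), LAMA1 (2.60) and LAMA2 (0.308). LAMB3 was thus at rank 5 in the controls and rank 2 in the knockdown, and no neighbours in either order overlapped. The control rank depends on the length taken for LAMA3. With its shortest annotated coding sequence, a setting added after the data were seen, LAMA3 (10.4) lay above LAMB3 (6.57) in the controls. LAMA4, LAMB4 and LAMC3 lay below the others in both groups and could not be ordered.

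The mix of beta chains differed accordingly. LAMB3 made up 5.15% ± 0.0333 of the beta chain level per kb in the controls and 33.2% ± 0.546 in the knockdown (SD, n = 2 each). The LAMB2 share went from 58.0% ± 0.360 to 24.4% ± 0.336, and the LAMB1 share from 36.8% ± 0.314 to 42.3% ± 0.873. Beta chains summed to 128 ± 2.73 CPM per kb in the controls and 186 ± 0.534 in the knockdown, a ratio of 1.46. The corresponding ratio was 1.06 for alpha chains.

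Among alpha chains, LAMA5 had 73.3% ± 1.24 of the level in the controls and 62.9% ± 1.41 in the knockdown. LAMA3 had 21.0% ± 1.17 and 25.8% ± 0.231. With LAMA3 divided by its shortest annotated coding sequence (5004 in place of 9999 bases), its shares were 34.7% and 41.0%, a setting added after the data were seen. These shares describe RNA and not chains of secreted protein.

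**Figure D4:**
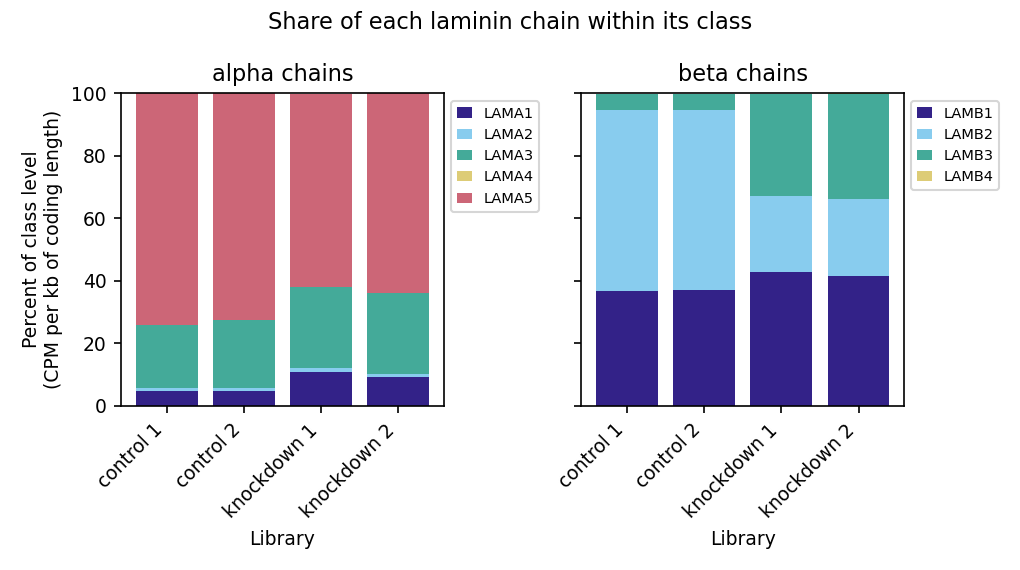
Share of each gene in the summed level (CPM per kb of coding length) of the alpha or beta class, in percent, as stacked bars for the 4 libraries. The LAMB3 part of the beta class is 5.13% and 5.18% in control cells against 32.9% and 33.6% after knockdown.

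The receptors of laminins, among them integrins, dystroglycan and syndecans, hold cells on the basement membrane. Of 15 listed receptor genes 14 were tested, of which 3 rose and 7 fell (median log2 fold change -0.058, against 0.0012 for all genes). Over all tested genes 25.1% rose and 24.9% fell, and the counts of this and the following lists are to be read against those shares. These lists too were chosen with earlier results of these data known, and most genes named have the smallest adjusted p. The p-values below do not allow for either choice. Among these receptors, the CD151 call (log2 fold change 0.091) was lost with scaling by library size alone and with DESeq2. It was also lost without control replicate 1 (0.074), knockdown replicate 1 (0.102) or knockdown replicate 2 (0.080). The SDC2 call (-0.20) was lost with no low-count filter and with DESeq2. Leaving out control replicate 2 (-0.126), knockdown replicate 1 (-0.203) or knockdown replicate 2 (-0.199) also removed the SDC2 call. ITGB4, the β4 integrin chain that binds laminin-332 in hemidesmosomes, measured 110 and 109 CPM in control cells against 39.0 and 45.1 CPM after knockdown, a log2 fold change of -1.38 (SE 0.061). Its partner ITGA6, the α6 chain, went from 144 down to 105 CPM (log2 fold change -0.46). DAG1, the dystroglycan that binds alpha chains in muscle and epithelia, went from 156 down to 122 CPM (-0.36). SDC4, a heparan sulfate syndecan, rose 1.56-fold, from 218 to 339 CPM. The other listed syndecans, SDC1 and SDC2, were called lower, SDC1 from 75.7 to 60.9 CPM (log2 fold change -0.31). The adjusted p from edgeR was 1.24e-10 for ITGB4, 6.95e-11 for SDC4, 5.02e-07 for ITGA6 and 9.87e-07 for DAG1. ITGB1, the chain shared by most laminin integrins, averaged 716 CPM in control cells and 724 CPM after knockdown, a difference that was not called (log2 fold change 0.015, adjusted p = 0.597 in edgeR's test).

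Hemidesmosome and anchoring genes, which tie laminin-332 to keratins and to the matrix below, moved in both directions. Of 8 tested, 5 rose and 3 fell, beside 25.1% and 24.9% of all genes (median log2 fold change 0.11), and ITGB4, ITGA6 and CD151 are also among the receptors. DST, which encodes the plakin BPAG1, rose from 447 ± 8.88 to 566 ± 11.9 CPM and PLEC, the plectin gene, from 1156 ± 2.53 to 1272 ± 33.8 CPM (log2 fold change 0.34 and 0.14, edgeR adjusted p = 1.68e-08 and 1.00e-04). KRT14, a keratin of basal cells, had 0 counts in every library, and its partner KRT5 was at 0.178 CPM in the controls and 0.0647 CPM in the knockdown. The number that rose was 3 with scaling by library size alone, where COL7A1 and CD151 were not called, and 2 with DESeq2, where FERMT1 was not called either. COL7A1 also lost its call with no low-count filter and without control replicate 2. CD151 lost its call without control replicate 1 and without either knockdown replicate.

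Other basement membrane genes, with which laminins form a sheet, showed 5 rises and 3 falls among 17 tested (median log2 fold change 0.034), a share called near the 50.1% of all genes. Collagen IV genes moved in both directions. COL4A5 and COL4A6 were called lower, from 112 to 93.5 CPM and from 132 to 97.8 CPM. The paired genes COL4A1 and COL4A2 rose together. COL4A1 had 32.1 and 31.9 CPM in the controls and 61.4 and 61.4 CPM in the knockdown, and COL4A2 had 54.0 and 52.9 against 118 and 118 CPM. SPARC, a collagen-binding matrix protein, rose 1.44-fold, and FBLN1, the fibulin-1 gene, fell from 286 ± 2.26 to 139 ± 3.01 CPM. The adjusted p from edgeR was 3.74e-10, 7.99e-11, 8.35e-10 and 7.37e-13 for COL4A1, COL4A2, SPARC and FBLN1. The proteins that link laminin to collagen IV did not pass the test, with log2 fold changes of 0.020 for NID1, 0.63 for NID2, 0.070 for HSPG2 and 0.034 for AGRN. NID2 (edgeR adjusted p = 0.0767) was called without knockdown replicate 1 (0.0280), and HSPG2 (0.0930) without control replicate 1 (0.0487) or knockdown replicate 1 (0.00175).

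Proteases known to cut laminin chains or to activate such enzymes gave 2 rises and 2 falls among 7 tested, also near the 50.1% of all genes that were called. MMP2, a gelatinase, fell from 143 ± 1.82 to 99.1 ± 4.05 CPM, and BMP1, a protease that processes matrix precursors, from 59.3 ± 2.04 to 49.7 ± 0.610 CPM. PLAT, a plasminogen activator, rose 1.15-fold. CTSS, the protease cathepsin S, rose from 3 and 6 counts to 21 and 18. The adjusted p from edgeR was 9.46e-08 for MMP2, 2.69e-04 for BMP1, 6.88e-04 for PLAT and 8.30e-04 for CTSS.

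Another list held genes that build the sugar chains by which dystroglycan holds laminin. Of 14 tested, 2 rose and 2 fell, where 25.1% and 24.9% of all genes did (median log2 fold change -0.042). POMT2, which adds the first mannose, rose 1.51-fold and B3GALNT2 1.19-fold. B3GNT1, now named B4GAT1, fell from 21.3 ± 0.777 to 14.6 ± 0.206 CPM. GTDC2, now named POMGNT2, fell from 15.2 to 12.2 CPM. The adjusted p from edgeR was 4.42e-06, 4.93e-04, 1.17e-04 and 0.0187 for POMT2, B3GALNT2, B3GNT1 and GTDC2. The GTDC2 call was lost with DESeq2, without either control replicate and without knockdown replicate 1, which left 1 gene lower.

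Netrins are secreted relatives of the laminin short arms. Of 3 tested netrin genes, 2 fell and 0 rose by edgeR's adjusted p, beside 24.9% and 25.1% of all genes, and the number higher was also 0 at an unadjusted p under 0.05 and with DESeq2. NTN4, which can disrupt laminin networks, measured 46.6 and 49.5 CPM in control cells against 28.6 and 29.7 CPM after knockdown (edgeR adjusted p = 3.52e-08). NTN1 was low, at 14 and 12 counts against 6 and 4. Its call (edgeR adjusted p = 0.0483) was lost with each library left out in turn, with no low-count filter and with DESeq2.

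**Figure D5:**
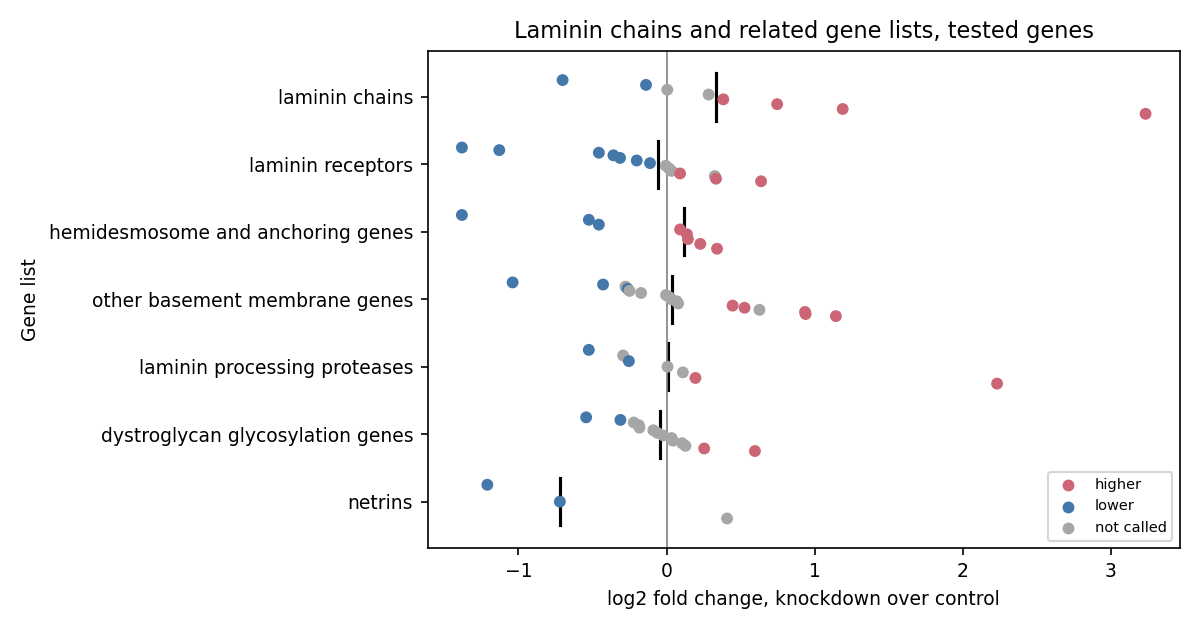
The log2 fold change (knockdown over control) of each tested gene of the laminin chains and of 6 related lists, with red for called higher, blue for called lower, grey for not called and a black line at each list's median. ITGB4 is the lowest point of the receptors and of the hemidesmosome genes at -1.38, and LAMB3 the highest laminin gene at 3.24.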

How the data were processed

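RNA was sequenced from 4 libraries of SUM159 cells, 2 control and 2 knockdown, each an Illumina poly(A) library per the labels' protocols. The authors deposited a table of estimated counts by gene, one column per library, from reads aligned by STAR to build GRCh37 per the submitters' processing notes. No source used here names the counting program, its annotation or its strandedness, so reads of antisense genes cannot be told apart. Columns were matched by name, with 0 left unused. Counts were rounded to whole numbers, and all laminin values were whole already.

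Genes passing edgeR's filterByExpr (minimum count 10; 13915 genes) were scaled by TMM and tested by edgeR 4.0.16's quasi-likelihood test in R 4.3.3, two-sided, with group as the only term. P-values were adjusted by Benjamini-Hochberg over all tested genes and called at 0.05. Values are TMM-scaled CPM. The pipeline was tested on simulated data. Alternatives were scaling by RLE or by library size, testing every gene with a count, DESeq2 1.42.0, limma-voom (limma 3.58.1), the replicate number as a block and each library left out in turn. Chi-square per gene between replicates was 2.01 in the controls and 1.71 in the knockdown, so libraries were kept separate. Coding lengths came from GENCODE release 29 (GRCh38) and promoters from RefSeq (GRCh38.p14), neither of which is the build of the counts.

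Genes and lists were chosen with earlier results of these data known. The text names SPEN, the 9 laminin chain genes with LAMB4 and LAMC3, up to 4 called genes of each related list with the smallest adjusted p, listed structural genes at 0, and the 3 genes with the nearest profile to the laminin genes with the largest rise and fall. Other genes were named after their values were seen: ITGB1, SDC1, SDC2, COL17A1, KRT5, NID1, NID2, HSPG2, AGRN, COL4A5, COL4A6, COL7A1, CD151, FERMT1, LAMB2P1 and the cell markers. One listed receptor, RPSA, was not analysed here. Some listed genes are not reported here, and the counts, levels and medians given for the lists leave them out. Floors of 3 counts take in counting error alone, as reads lacking molecular identifiers may be copies of 1 molecule.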

Additional observations from a re-analysis of the deposited data

How the results depend on the processing

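As a description of genes chosen with this contrast known, LAMA1, LAMA3, LAMB1 and LAMB3 were called higher and LAMB2 lower under all 10 alternatives. The log2 fold change ranged from 3.19 to 3.26 for LAMB3 and from -0.75 to -0.69 for LAMB2. The number of laminin genes called lower was 1 with no low-count filter and 1 to 2 with a library left out, the loss being LAMA5, and the cause was not tested. Hemidesmosome genes called higher numbered 3 with library-size scaling and 2 with DESeq2. Dystroglycan glycosylation genes called lower numbered 1 with DESeq2 and 1 to 2 with a library left out, the loss being GTDC2. Netrin genes called lower numbered 1 with no low-count filter, 1 with DESeq2 and 1 to 1 with a library left out, the loss being NTN1, and the cause was not tested. The LAMB3 share of beta chains was 3.41% in the controls and 24.4% in the knockdown when CPM was not divided by length. Per kb of transcript length, a setting chosen after seeing the data, it was 4.48% and 30.1%, and with 1 library of a group left out it was 5.13% to 5.18% and 32.9% to 33.6%. LAMC1, not called, had a log2 fold change of -0.041 with library-size scaling. With a library left out its group has a single sample, which is assumed to vary like the others.

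The replicate numbers are not stated to pair the libraries. Same-numbered deviations correlated at 0.191 across tested genes. With the replicate number as a block, 3609 genes were called higher and 3602 lower, against 3499 and 3471, the laminin calls were the same and NID2 and HSPG2 were called higher. All 10 alternatives gave between 2601 and 3609 genes higher and between 2364 and 4101 lower. For LAMA4, LAMB4 and LAMC3 the depth is the limit.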

Other observations

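Profiles over the 4 libraries were compared by the Euclidean distance of log2 CPM (prior count 2) centred on each gene's mean, over 10438 genes with a mean of at least 5 CPM. Nearest to LAMB3 were DNER (distance 0.389), IL1RL1 (0.532) and TFPI2 (0.628). DNER, a transmembrane protein with EGF repeats, went from 9.41 to 68.1 CPM, IL1RL1, the interleukin-33 receptor, from 23.5 to 155 CPM, and TFPI2, a serine protease inhibitor, from 2.60 to 16.4 CPM. None was as large in log2 fold change as LAMB3 (3.24), with values of 2.85, 2.72 and 2.66. The limit of 5 CPM was set on the mean of all 4 libraries, so TFPI2 passed it only through its knockdown values.

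Nearest to LAMB2 were the condensin subunit gene NCAPG (distance 0.0107), the ferritin light chain gene FTL (0.0150) and NUCB1, which encodes a calcium-binding Golgi protein (0.0189). NCAPG went from 57.1 to 35.3 CPM, FTL from 1996 to 1231 CPM and NUCB1 from 76.1 to 47.3 CPM. The 4 libraries hold only 2 groups, so nearness on this measure is mainly a like change between the groups.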
